A study of Rattus norvegicus with 6 samples.

Results

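The genes described here are 8 regulators of muscle protein breakdown, chosen by name from the 32623 genes of the count table of rat myocardium. They are the muscle ubiquitin ligases Fbxo32 (atrogin-1), Trim63 (MuRF1), Trim54 (MuRF3) and Trim55 (MuRF2), the forkhead transcription factors Foxo1, Foxo3 and Foxo4, and Mstn, which encodes myostatin. All 8 had a row in the table, and 7 were abundant enough to be tested. Total RNA had been sequenced from 3 sham samples and from 3 ischemia samples of rats in which the left anterior descending coronary artery, the main supply of the front of the left ventricle, had been tied. All animals are described as male rats of the WT genotype. The reads on Y-linked genes, given below, did not match the male label in every library. The rats were anesthetized, ventilated and opened by a left thoracotomy, and both groups carry the label 30 min. For sham no ligation is described, and in ischemia the occlusion was checked by ST segment elevation in the electrocardiogram. Strain and age are not given in the sources used here.

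Muscle cells break down much of their contractile protein through the ubiquitin-proteasome system, in which a ligase chooses the protein to be tagged. Atrogin-1 is the substrate-binding subunit of an SCF ligase, whereas the MuRF proteins are RING-type ligases that sit on the sarcomere and on microtubules. FoxO factors activate the genes of atrogin-1 and MuRF1 when Akt signaling is low, because Akt phosphorylation keeps FoxO proteins out of the nucleus. Myostatin, a secreted factor of the TGF-beta family, acts through activin receptors to limit muscle mass and lowers Akt activity.

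The 6 libraries held between 68529126 and 79591989 counted reads, and 3 reads corresponded to 0.0377 to 0.0438 CPM, the count scaled to a fixed library size. Library sham 1 held 26 reads on the Y-linked genes Ddx3y, Eif2s3y, Kdm5d and Uty, against 1772 to 4318 reads in each of the other libraries, although every rat is described as male. The atrial light chain gene Myl7 stood at 6530, 116.9 and 3541 FPKM in sham 1, 2 and 3 and at 764.4, 10.0 and 12.3 FPKM in ischemia 1, 2 and 3. FPKM is the fragment count scaled by transcript length and library size, a level that can be compared between genes. Both groups were therefore mixed in atrial transcripts, with sham 2 low in sham and ischemia 1 high in ischemia. The log2 fold change with sham 2 as the only sham library is given beside that of each of the 7 tested genes. That fit does not match the groups in atrial content, since ischemia 1 stayed above sham 2 in Myl7. Sham 2 also had the highest summed cardiomyocyte marker level of the 6 libraries, 57650 FPKM. Of the neutrophil and monocyte markers, 13 of 14 tested rose in ischemia at an adjusted p under 0.05 in edgeR, where 5.18% of all tested genes rose. The summed level of all 16 was 18.0 to 34.2 FPKM in sham and 906.3 to 4330 FPKM in ischemia. The sum of 9 cardiomyocyte markers was 32695 to 57650 FPKM in sham and 16989 to 33530 FPKM in ischemia. Myocardium was thus represented by its defining markers in every library. None of the 9 passed an adjusted p of 0.05 in edgeR. At an unadjusted p under 0.05, 3 of the 9 were lower and none was higher, against 14.2% and 18.2% of all tested genes. They were Myh6, Actc1 and Ryr2, at log2 fold changes of -2.38, -1.70 and -1.51 (edgeR adjusted p = 0.0510, 0.0536 and 0.0696).

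On the per-length FPKM scale, Trim54 had the highest level of the set in every library and Mstn the lowest. In sham the order of mean levels was Trim54, Trim55, Trim63, Foxo4, Fbxo32, Foxo1, Foxo3 and Mstn. Only the neighbours Trim55 and Trim63 had overlapping ranges there. The mean of Trim54 was 2.36 times that of Trim55, and more than 90% of tested genes lay below each of the MuRF genes (97.0% for Trim54, 93.5% for Trim55 and 91.8% for Trim63). The FoxO genes were far lower, with 78.8% of tested genes below Foxo4 and 37.5% below Foxo3. In ischemia the order was Trim54, Trim55, Trim63, Foxo4, Foxo3, Fbxo32, Foxo1 and Mstn, so that Foxo3 stood above Fbxo32 and Foxo1. The neighbours with overlapping ranges there were Trim55 with Trim63, Trim63 with Foxo4, Foxo3 with Fbxo32, and Fbxo32 with Foxo1. The mean of Trim54 was 6.40 times that of Trim55 in ischemia.

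**Figure D1:**
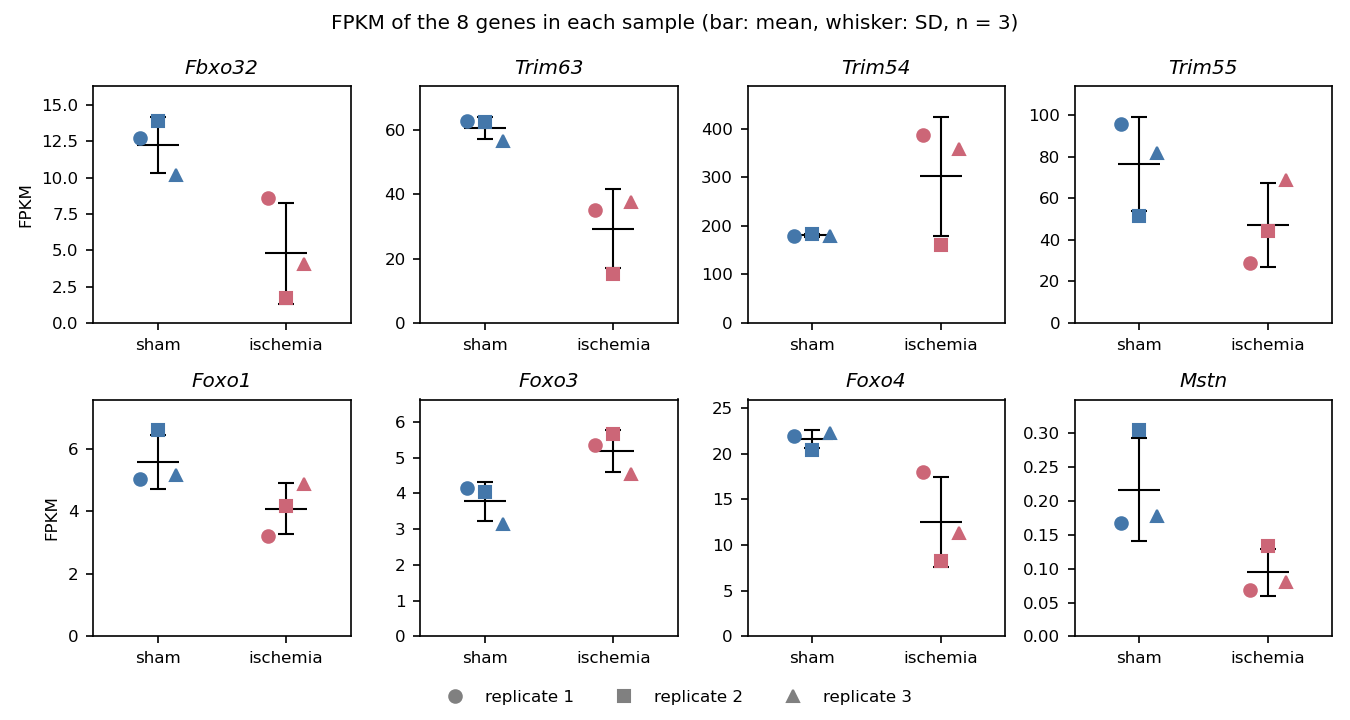
Level of each of the 8 genes in FPKM, one panel per gene with its own axis from 0, where each point is 1 library and the bar is the group mean with its SD (n = 3). Fbxo32, Trim63, Foxo4 and Mstn are lower in each ischemia library than in any sham library, as is Foxo1 on this scale, while Foxo3 is higher in each. Trim54 spreads from 161.0 to 387.0 FPKM in ischemia.

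None of the 7 tested genes passed an adjusted p of 0.05 in edgeR's quasi-likelihood test, in either direction. Among all 13964 genes tested, 5.18% rose and 1.53% fell at that threshold. At an unadjusted p under 0.05, 3 of the 7 (Fbxo32, Trim63 and Foxo4) were lower and none was higher, against 14.2% lower and 18.2% higher among all genes. DESeq2 called 1 of the 7, Trim63, as lower, and it called 12.5% of all genes lower and 14.8% higher. The groups did not overlap in 4 of the 8 genes after scaling of the libraries by the trimmed mean of M-values (TMM), all 4 lower in ischemia, where 19.1% of all tested genes were lower without overlap. On the FPKM scale, which lacks that scaling, 6 of the 8 did not overlap, with Foxo1 added as lower and Foxo3 as higher, and the shares among all genes were 15% lower and 23.6% higher. The median log2 fold change of the 7 was -0.74 and 2 of them lay above 0, against a median of -0.0015 and 6968 of 13964 above 0 for all tested genes. In whole myocardium, fewer cells of a type and less RNA per cell cannot be told apart.

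**Figure D2:**
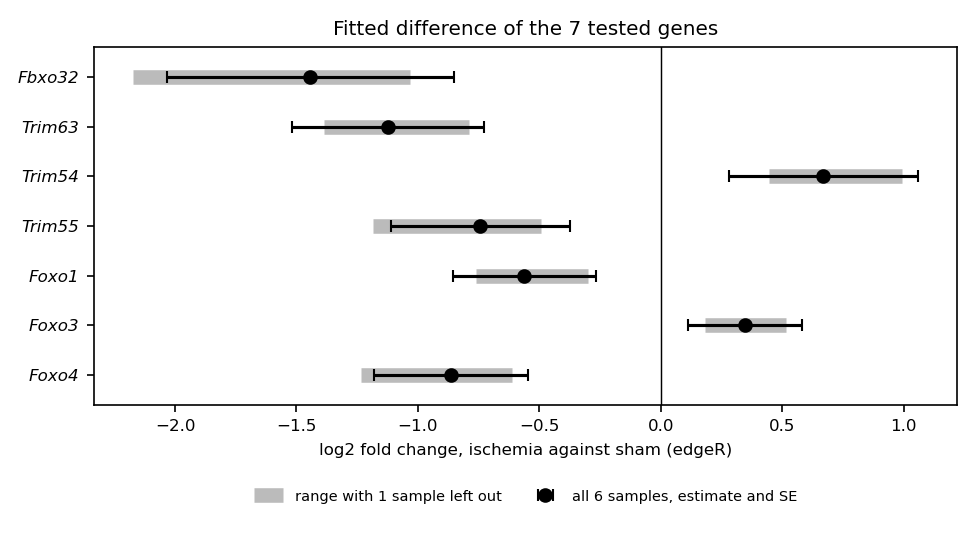
Log2 fold change of ischemia over sham from edgeR for the 7 tested genes, as black points with bars of 1 SE, over a grey band for the range with 1 library left out. The points of Fbxo32, Trim63, Trim55, Foxo1 and Foxo4 lie below 0, led by Fbxo32 at -1.44 ± 0.59, and those of Trim54 and Foxo3 above it, with no band reaching 0.

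Fbxo32 had the largest fitted difference of the set. Its level was 12.7, 13.9 and 10.2 FPKM in sham and 8.58, 1.72 and 4.07 FPKM in ischemia, or 12.3 ± 1.92 against 4.79 ± 3.49 FPKM (mean ± SD, n = 3). Every ischemia library lay below every sham library, and ischemia 2, with 410 reads against 2343 to 3585 in sham, was the lowest. The log2 fold change (± SE) was -1.44 ± 0.59, a level 2.72-fold lower, and edgeR gave an adjusted p of 0.151 (unadjusted 0.0477). Library ischemia 1 was closest to sham, at -0.57 in log2 CPM from the sham mean, whereas ischemia 2 and 3 stood at -3.01 and -1.58. Without ischemia 1 the log2 fold change was -2.17, past the edgeR threshold at an adjusted p of 0.0421, in a fit that called 7.98% of all genes lower and 10.7% higher. With sham 2 as the only sham library it was -1.82. With the cardiomyocyte marker score as a covariate it was -0.92, and with the atrial marker score it was -1.33. The gene (ENSRNOG00000006738) is listed at 98063735 to 98098268 of chromosome 7, minus strand, in a genome build that is not given in the sources used here.

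Trim63 encodes MuRF1, which binds titin at the M-line and tags thick-filament proteins. It stood at 62.9, 62.4 and 56.6 FPKM in sham and at 35.1, 15.2 and 37.5 FPKM in ischemia. All ischemia libraries were lower than all sham libraries, and the coefficient of variation was 5.78% in sham and 41.8% in ischemia. The log2 fold change (± SE) was -1.12 ± 0.40, a level 2.18-fold lower, and edgeR gave an adjusted p of 0.116 (unadjusted 0.0277). DESeq2 gave a log2 fold change of -1.15 with an adjusted p of 0.0366. As with Fbxo32, ischemia 2 was the lowest library, at -2.18 in log2 CPM from the sham mean. With sham 2 as the only sham library the log2 fold change was -1.37, and with the cardiomyocyte marker score as a covariate it was -0.74. The gene (ENSRNOG00000016543) is listed at 152533349 to 152547179 of chromosome 5, plus strand.

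Trim54 encodes MuRF3, which binds and stabilizes microtubules and also sits at the Z-line. Its level was 179.7, 183.0 and 178.4 FPKM in sham, the tightest group of any gene of the set, with a coefficient of variation of 1.33%. In ischemia it was 387.0, 161.0 and 357.8 FPKM, so that ischemia 1 and 3 were above all sham libraries and ischemia 2 was below them. The log2 fold change (± SE) was 0.67 ± 0.39, and edgeR gave an adjusted p of 0.268. It was 0.45 without ischemia 1, 0.99 without ischemia 2, 0.49 without ischemia 3 and 0.44 with sham 2 as the only sham library. With the cardiomyocyte marker score as a covariate it was 1.04, and with the atrial marker score it was 0.69. Library ischemia 2 also had the lowest summed cardiomyocyte marker level, 16989 FPKM, and the highest neutrophil and monocyte marker level, 4330 FPKM, whose part in its Trim54 value was not tested. The gene (ENSRNOG00000006146) is listed at 26603369 to 26624092 of chromosome 6, minus strand.

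Trim55 encodes MuRF2, a partner of titin and of microtubules in developing and adult sarcomeres. It stood at 95.8, 51.6 and 81.9 FPKM in sham and at 28.6, 44.3 and 68.6 FPKM in ischemia. The groups overlapped, because ischemia 3 lay above sham 2. The log2 fold change (± SE) was -0.74 ± 0.37, and edgeR gave an adjusted p of 0.210. Without single libraries it ranged from -0.49 (ischemia 1 left out) to -1.18 (ischemia 3 left out), and with sham 2 as the only sham library it was -0.42. The order of the ischemia libraries differed from that of Trim63, since ischemia 1 was the lowest for Trim55, at -1.44 in log2 CPM from the sham mean, and ischemia 3 the highest, at -0.11. The gene (ENSRNOG00000012723) is listed at 104416972 to 104459107 of chromosome 2, plus strand.

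The make-up of the MuRF family was also compared, as the share of each gene within a library. Trim63 held 18.6%, 21.0% and 17.9% of the summed MuRF FPKM in sham and 7.79%, 6.90% and 8.09% in ischemia, or 19.1% ± 1.65 against 7.59% ± 0.62 (SD, n = 3). All ischemia libraries, ischemia 2 included, lay close together and far below sham, a difference of -11.6 percentage points. The Trim54 share was 53.1%, 61.6% and 56.3% in sham and 85.9%, 73.0% and 77.1% in ischemia, 21.7 points higher. The Trim55 share was 28.3%, 17.4% and 25.8% in sham and 6.34%, 20.1% and 14.8% in ischemia, and these groups overlapped. Two-sided exact permutation tests gave p = 0.1 for the Trim63 and Trim54 shares, the smallest value that 3 libraries against 3 allow, and p = 0.2 for the Trim55 share. After adjustment over the 8 ratios and shares compared, the exact permutation p was 0.2 for the Trim63 and Trim54 shares. The shares of a library add up to its whole, so a higher share of one gene lowers the others. The log2 ratio of Fbxo32 to Trim63 was -2.30, -2.16 and -2.48 in sham and -2.03, -3.15 and -3.21 in ischemia, and the groups overlapped (exact permutation p = 0.4).

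**Figure D3:**
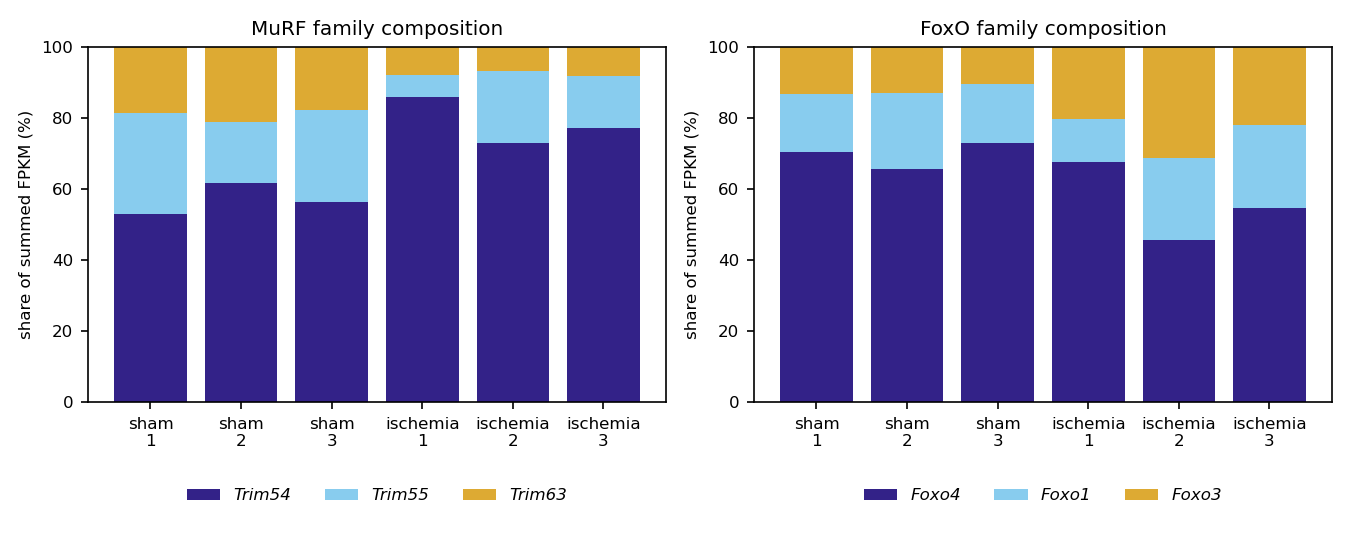
Percent of the summed FPKM of the MuRF genes (Trim63, Trim55, Trim54) and of the FoxO genes (Foxo1, Foxo3, Foxo4) held by each gene, as stacked bars from 0 for each of the 6 libraries. Trim63 holds 17.9% to 21.0% in sham and 6.90% to 8.09% in ischemia, and Foxo3 holds 10.3% to 13.3% in sham and 20.2% to 31.2% in ischemia.

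The promoters of Trim63 and Trim54 are shown because both genes belong to the MuRF family and had opposite signs of log2 fold change. The RefSeq promoter table (GRCr8) held 4 of the 8 genes, Trim63, Trim54, Foxo1 and Foxo4, each as 250 bases before and 50 after the annotated start. Capitals mark matches, on either strand, to the FoxO core TGTTTAC (or GTAAACA), the glucocorticoid receptor half-site TGTTCT (or AGAACA), the TATA box TATAAA (or TTTATA) and the E-box CANNTG. The Trim63 sequence is chr5:151816986-151817285 on the plus strand and the Trim54 sequence is chr6:30978426-30978725 on the minus strand, both printed 5′ to 3′ along the gene.
Trim63: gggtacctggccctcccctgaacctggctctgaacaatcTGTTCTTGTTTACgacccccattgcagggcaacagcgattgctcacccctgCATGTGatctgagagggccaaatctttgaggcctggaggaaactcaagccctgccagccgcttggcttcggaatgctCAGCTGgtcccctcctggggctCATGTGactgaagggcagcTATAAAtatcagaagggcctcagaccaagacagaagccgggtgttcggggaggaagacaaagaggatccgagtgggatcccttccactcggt
Trim54: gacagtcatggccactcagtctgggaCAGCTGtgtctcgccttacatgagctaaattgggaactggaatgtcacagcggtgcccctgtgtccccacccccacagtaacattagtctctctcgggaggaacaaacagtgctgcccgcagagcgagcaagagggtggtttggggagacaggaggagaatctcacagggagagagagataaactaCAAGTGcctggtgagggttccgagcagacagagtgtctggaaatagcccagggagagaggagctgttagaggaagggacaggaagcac

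Trim63 was the only one of the 4 promoters with the FoxO core, at -205 to -199 from the start, and 3.78% of the 33469 promoters in the table hold these letters. The glucocorticoid half-site lay directly before it, at -211 to -206, without overlap, and 20.7% of all promoters hold that half-site. A TATA box match stood at -42 to -37, a motif found in 14.2% of promoters. E-boxes, the sites of many muscle transcription factors, began at -160, -83 and -61 in Trim63, at -224 and -38 in Trim54 and at -154 in Foxo4, and 72.1% of all promoters hold at least 1. The Foxo1 window held none of the 4 motifs. These are matches of letters only, and binding was not measured.

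Foxo4 was the most abundant of the FoxO genes. It stood at 22.0, 20.4 and 22.3 FPKM in sham and at 18.0, 8.26 and 11.3 FPKM in ischemia. Sham was tight, with a coefficient of variation of 4.56%, and all ischemia libraries were lower, with ischemia 2 the lowest as for Fbxo32 and Trim63. The log2 fold change (± SE) was -0.86 ± 0.32, a level 1.82-fold lower, and edgeR gave an adjusted p of 0.125 (unadjusted 0.0329). Without ischemia 1 it was -1.23, past the edgeR threshold at an adjusted p of 0.0324, in the fit that called 7.98% of all genes lower and 10.7% higher. With sham 2 as the only sham library the log2 fold change was -1.0, and with the cardiomyocyte marker score as a covariate it was -0.59. The gene (ENSRNOG00000033316) is listed with 3 transcripts at 71155601 to 71162158 of chromosome X, plus strand.

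Foxo1 and Foxo3, the factors best known for driving atrogin-1 in muscle, lay on opposite sides of 0. Foxo1 was at 5.04, 6.60 and 5.16 FPKM in sham and at 3.23, 4.19 and 4.87 FPKM in ischemia. Its groups were separate on this scale and overlapped after TMM scaling, whose factors ran from 0.834 in sham 2 to 1.111 in ischemia 2. The log2 fold change (± SE) was -0.56 ± 0.29, and edgeR gave an adjusted p of 0.229. It was -0.30 without sham 2 and -0.98 with sham 2 as the only sham library, -0.97 with the atrial marker score as a covariate (edgeR adjusted p = 0.232) and -0.29 with the cardiomyocyte marker score. Foxo3 was at 4.15, 4.04 and 3.15 FPKM in sham and at 5.37, 5.65 and 4.53 FPKM in ischemia, again separate on this scale and overlapping after TMM scaling. Its log2 fold change (± SE) was 0.35 ± 0.23, for which edgeR gave an adjusted p of 0.330, and it was 0.18 without sham 3, 0.20 with the atrial marker score as a covariate and 0.054 with sham 2 as the only sham library. Foxo1 (ENSRNOG00000013397) is listed at 141451234 to 141527016 of chromosome 2 and Foxo3 (ENSRNOG00000000299), with 2 transcripts, at 46428124 to 46519144 of chromosome 20, both plus strand.

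Ratios between the FoxO genes do not depend on library scaling. The log2 ratio of Foxo3 to Foxo1 was -0.28, -0.71 and -0.71 in sham and 0.73, 0.43 and -0.10 in ischemia, so that Foxo3 stood below Foxo1 in every sham library and above it in ischemia 1 and 2. The mean ratio was -0.57 ± 0.25 against 0.36 ± 0.42 (SD, n = 3), without overlap (two-sided exact permutation p = 0.1, adjusted 0.2). Foxo3 held 13.3%, 13.0% and 10.3% of the summed FoxO FPKM in sham and 20.2%, 31.2% and 21.9% in ischemia, a difference of 12.3 percentage points without overlap (exact permutation p = 0.1, adjusted 0.2). The Foxo4 share was 70.5%, 65.8% and 72.8% in sham and 67.6%, 45.7% and 54.6% in ischemia, with ischemia 1 inside the sham range (exact permutation p = 0.2). The Foxo1 share was 16.2%, 21.2% and 16.9% in sham and 12.2%, 23.1% and 23.5% in ischemia, with no separation (exact permutation p = 0.8).

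Mstn was near the lower end of the table, with a mean level above that of 1.26% of tested genes in sham. Its counts were 34, 65 and 34 reads in sham and 15, 27 and 16 reads in ischemia, or 0.168, 0.304 and 0.177 FPKM against 0.0688, 0.134 and 0.0808 FPKM. Each ischemia library was below each sham library. The pooled level was 0.598 CPM in sham and 0.263 CPM in ischemia, a ratio of 0.440 with a 95% exact Poisson interval of 0.317 to 0.603 that covers counting error only. Because its mean FPKM was under 0.5, Mstn was not tested in the main comparison. When all genes with reads were tested, its log2 fold change (± SE) was -1.30 ± 0.69, for which edgeR gave an adjusted p of 0.288. The gene (ENSRNOG00000021294) is listed at 53309598 to 53315915 of chromosome 9, minus strand. The markers of skeletal muscle, a tissue where myostatin is abundant, summed to 15.3 to 31.6 FPKM in sham and 19.0 to 34.0 FPKM in ischemia, with Casq1 the most abundant in every library. The fast-fiber genes Myh4 and Actn3 stayed at or below 0.102 and 0.101 FPKM, whereas Tnnt3 was at 1.69 to 4.86 FPKM over the 6 libraries. Mybpc2, a fast myosin-binding protein gene, was at 0.672, 0.520 and 2.98 FPKM in sham and at 9.62, 2.56 and 4.35 FPKM in ischemia (log2 fold change 1.98 ± 0.79 (SE), edgeR adjusted p = 0.144), and its groups overlapped. The part of skeletal muscle RNA in the Mstn values was not tested.

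Of the other genes of the myostatin and activin pathway, 3 of 19 tested rose and none fell, where 5.18% of all tested genes rose and 1.53% fell. Inhbb, the beta-B subunit of activin and inhibin, was at 0.632, 0.581 and 0.831 FPKM in sham and at 5.29, 41.5 and 14.6 FPKM in ischemia, a log2 fold change of 4.78 ± 0.75 (SE, edgeR adjusted p = 0.0317). Fstl3, a secreted protein that binds and blocks activins and myostatin, was at 4.56, 3.11 and 6.47 FPKM in sham and at 16.2, 48.8 and 65.5 FPKM in ischemia, a log2 fold change of 3.16 ± 0.55 (SE, edgeR adjusted p = 0.0361). Acvr1b, a type I receptor of the pathway, was at 7.39, 4.19 and 6.43 FPKM in sham and at 18.2, 19.1 and 17.5 FPKM in ischemia, with a log2 fold change of 1.54 ± 0.18 (SE, edgeR adjusted p = 0.0272). The genes of a ligand subunit, an inhibitor and a receptor were therefore each higher in ischemia, without overlap between the groups. Of the 19 tested genes, 4 were higher and 2 lower without overlap after TMM scaling, against 22% and 19.1% of all tested genes. The median over the 19 genes was 0.13, and 12 of them lay above 0. Over the 20 alternatives it ran from -0.03 (without ischemia 2) to 0.39 (sham 2 as the only sham library). The lowest was Wfikkn2, another myostatin inhibitor, which is listed without reads in ischemia 2 and had a log2 fold change of -2.12 ± 1.40 (SE, edgeR adjusted p = 0.321).

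Of 23 tested genes known as FoxO targets other than the ligases, 4 rose and none fell, where 5.18% of all tested genes rose and 1.53% fell. The median log2 fold change of the list was 0.18 with 12 genes above 0, and the alternatives ran from -0.05 (without ischemia 2) to 0.35 (without ischemia 1). Gadd45a, a stress gene that FoxO factors and other stress pathways induce, was at 12.1, 16.1 and 17.2 FPKM in sham and at 39.9, 147.1 and 85.1 FPKM in ischemia, a log2 fold change of 2.46 ± 0.47 (SE, edgeR adjusted p = 0.0406). Ddit4, an inhibitor of mTOR that hypoxia and glucocorticoids also induce, had a log2 fold change of 1.48 ± 0.24 (SE, edgeR adjusted p = 0.0327). Bcl6, a transcriptional repressor, had 1.46 ± 0.21 (SE, edgeR adjusted p = 0.0298). Eif4ebp1, a repressor of cap-dependent translation, was at 69.7, 51.9 and 84.7 FPKM in sham and at 172.5, 194.9 and 193.4 FPKM in ischemia (log2 fold change 1.38 ± 0.18 (SE), edgeR adjusted p = 0.0272). Targets of these factors thus lay on both sides of 0, since at an unadjusted p under 0.05 in edgeR 8 of the 23 were higher and 4 lower, against 18.2% and 14.2% of all tested genes. The lowest of the list was Klf15, a glucocorticoid-responsive factor of muscle metabolism, at -1.32 ± 0.54 (SE, edgeR adjusted p = 0.153).

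Upstream of FoxO, 1 of 19 tested genes of the insulin, IGF1 and Akt branch passed the test, a share near the 5.18% of all tested genes that rose. At an unadjusted p under 0.05 in edgeR, 4 were higher and 6 lower, against 18.2% and 14.2% of all tested genes. The median log2 fold change was -0.05, and the alternatives ran from -0.35 (genes averaging 5 FPKM or more) to 0.05 (total-count scaling). The gene that rose was Sgk1, a kinase related to Akt that also phosphorylates FoxO factors, at 1.33 ± 0.29 (SE, edgeR adjusted p = 0.0488). The lowest was Pik3r2, a regulatory subunit of the kinase above Akt, at -1.0 ± 0.35 (SE, edgeR adjusted p = 0.114). Of 17 tested cofactors and modifiers of FoxO, Prmt1, a methyltransferase that acts on Foxo1, alone passed, at 1.02 ± 0.16 (SE, edgeR adjusted p = 0.0311), again near the share of 5.18% over all genes. The remaining FoxO gene, Foxo6, was at 1.71, 2.13 and 1.89 FPKM in sham and at 0.835, 0.0634 and 0.0791 FPKM in ischemia, with a log2 fold change of -2.63 ± 1.04 (SE, edgeR adjusted p = 0.143). The highest of that list was Skp2, a ligase subunit that targets Foxo1, at 1.10 ± 0.38 (SE, edgeR adjusted p = 0.113). The median was 0.33, and 12 of 17 lay above 0. The alternatives ran from 0.11 (without ischemia 2) to 0.46 (sham 2 as the only sham library).

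Glucocorticoid and NF-kB signaling can raise the MuRF1 gene in skeletal muscle. The list for these inputs, which also holds target genes and NF-kB inhibitors, had a median of 0.67, with 9 of 11 tested genes above 0. The median ran from 0.18 (without ischemia 2) to 0.79 (without ischemia 1) over the alternatives. In this list 2 genes rose and none fell, namely Fkbp5 and Sgk1, where 5.18% of all tested genes rose and 1.53% fell. Fkbp5, a chaperone and a standard readout of the glucocorticoid receptor, was at 4.58, 4.75 and 4.04 FPKM in sham and at 23.0, 37.5 and 54.7 FPKM in ischemia, a log2 fold change of 3.01 ± 0.38 (SE, edgeR adjusted p = 0.0272). Tsc22d3, another glucocorticoid target, was the lowest of the list at -0.23 ± 0.17 (SE, edgeR adjusted p = 0.376). Per1, a clock gene that the receptor also induces, had a log2 fold change of 1.29 ± 0.30 (SE, edgeR adjusted p = 0.0515), and its groups did not overlap. Nr3c1, the glucocorticoid receptor gene, had a log2 fold change of -0.13 ± 0.32 (SE, edgeR adjusted p = 0.796). Nfkbia, the gene of an NF-kB inhibitor, had 1.46 ± 0.39 (SE, edgeR adjusted p = 0.0675). Per1, Nr3c1 and Nfkbia were named after their values were seen.

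Partners and substrates of the ligases gave 1 call among 19 tested rows, near the share of 5.18% over all genes. The gene was Stat3, a transcription factor of cytokine signaling, at 1.40 ± 0.19 (SE, edgeR adjusted p = 0.0286). Its level was 40.1, 35.2 and 38.4 FPKM in sham and 116.9, 99.6 and 102.4 FPKM in ischemia. Myh6, the alpha myosin heavy chain, was the lowest of that list at -2.38 ± 0.54 (SE, edgeR adjusted p = 0.0510), and Des, the intermediate filament protein desmin, the highest at 1.5 ± 0.56 (SE, edgeR adjusted p = 0.127). The median of the list was -0.22, with 7 of 19 above 0, and the alternatives ran from -0.38 (atrial marker score as a covariate) to 0.03 (cardiomyocyte marker score). Neither the 15 other muscle ubiquitin ligases nor the 13 SCF subunits and ubiquitin-conjugating enzymes held a gene past an adjusted p of 0.05 in edgeR. At an unadjusted p under 0.05, 1 was higher and 4 were lower among the other ligases, and 2 were higher and 1 was lower among the SCF and conjugating enzymes, where 18.2% of all tested genes were higher and 14.2% lower. The other ligases ranged from Rnf207, which is known for its part in cardiac repolarization, at -2.51 ± 0.79 (SE, edgeR adjusted p = 0.0927) to Cblb, a ligase that targets insulin receptor substrates, at 1.58 ± 0.46 (SE, edgeR adjusted p = 0.0798). Their median was -0.43 and 5 of 15 lay above 0, and the alternatives ran from -0.70 (sham 2 as the only sham library) to -0.19 (without ischemia 2). The SCF and conjugating enzymes had a median of 0.06 with 9 of 13 above 0, and the alternatives ran from -0.01 (sham 2 as the only sham library) to 0.15 (total-count scaling). Among the latter, the ubiquitin-conjugating enzyme genes Ube2d3 and Ube2d1 were the extremes, at 1.0 and -1.16 (edgeR adjusted p = 0.0537 and 0.114).

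**Figure D4:**
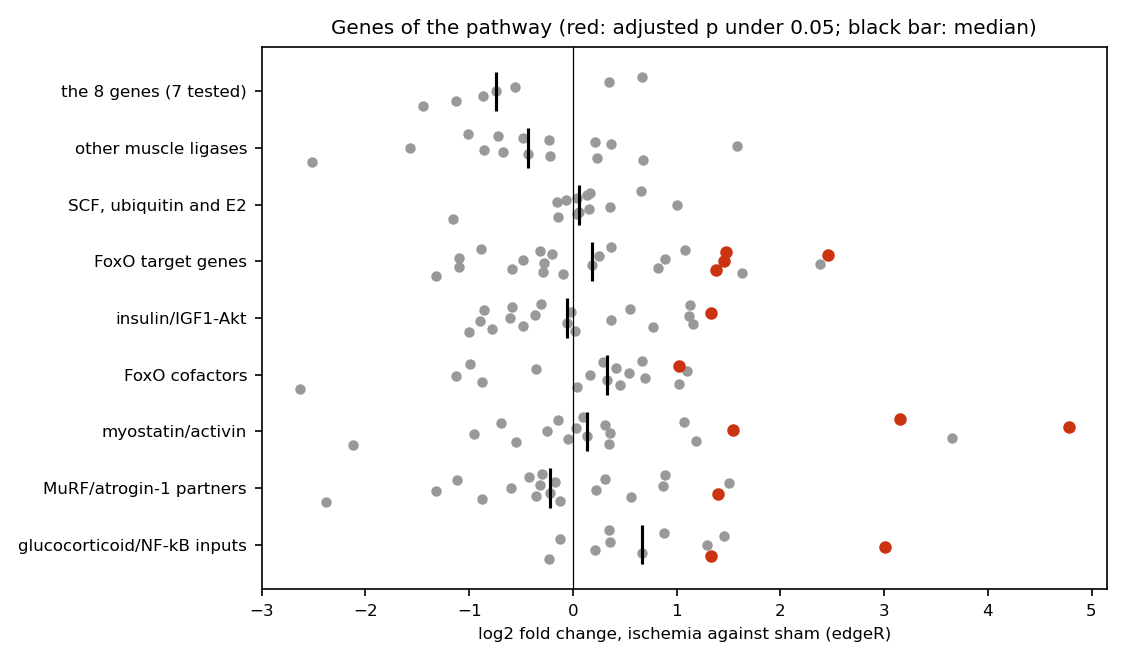
Log2 fold change of ischemia over sham from edgeR for each tested gene of the pathway lists and of the 7 tested ligase and FoxO genes, where red points have an adjusted p under 0.05, grey points do not, and the black bar is the list median. All red points lie above 0, and the medians run from -0.74 for the 7 genes to 0.67 for the glucocorticoid and NF-kB inputs.

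Over the 8 pathway lists together, 11 of 133 tested genes rose and none fell, where 5.18% of all tested genes rose and 1.53% fell. These calls changed with single libraries. Leaving out sham 1, sham 2, sham 3 or ischemia 3 left 0 of the 133 past the threshold, and 0 of all 13964 genes passed in those fits too. Adding the atrial marker score gave 0 calls in the lists and in the whole table, and the cardiomyocyte marker score gave 0 in the lists and 4 in the table. Leaving out ischemia 1 gave 33 calls in the lists, 12 of them lower, where 10.7% of all genes were called higher and 7.98% lower.

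The 7 tested genes fell into more than 1 pattern across the libraries. The distance between genes was taken as the root mean square difference of their log2 CPM, each centred on its own mean over the 6 libraries. Within the set the nearest pair was Trim63 and Foxo4, at 0.32, and both were lowest in ischemia 2. Fbxo32 lay at 0.46 from Trim63, and Trim55 at 0.46 from Foxo1. The farthest pair was Fbxo32 and Foxo3, at 1.26. Among the 7450 or 7451 other genes averaging 5 FPKM or more, the nearest to Foxo4 were Wdtc1 (0.0401), Oaz2 (0.0557) and Zer1 (0.0654), closer than any neighbour of the other members. The nearest to Trim63 were the potassium channel gene Kcnq1 (0.0892), St3gal3 (0.119) and the M-line gene Myom1 (0.125). The nearest to Fbxo32 were Lsamp (0.0858), Rab3b (0.113) and Hrc (0.126), the last a calcium-binding protein of the sarcoplasmic reticulum. Trim54 was nearest to Parm1 (0.129), Nol3 (0.129) and Iba57 (0.157), and Trim55 to Timp3 (0.126), Rn7sl1 (0.143) and Pkia (0.200). Foxo1 was nearest to Myadm (0.133), Socs6 (0.136) and Hic1 (0.144), and Foxo3 to Xdh (0.101), Ints3 (0.106) and Amd1 (0.110).

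**Figure D5:**
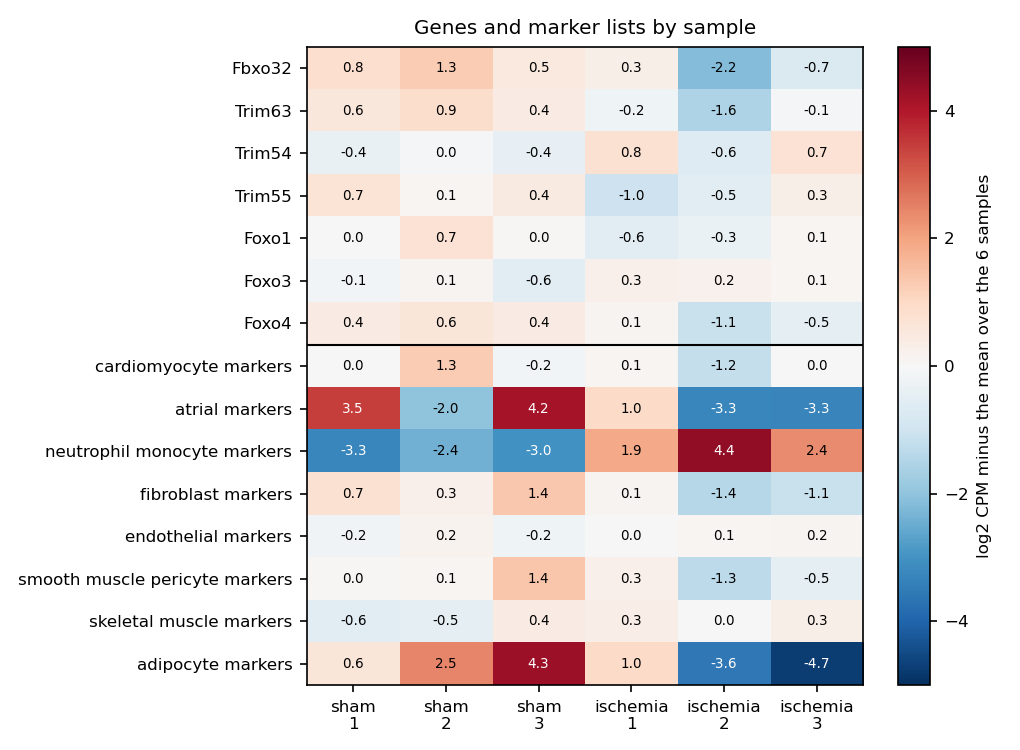
Heat map of log2 CPM minus the mean over the 6 libraries, with libraries as columns, the 7 tested genes as the upper rows and the mean score of each marker list as the lower rows, red above and blue below the mean. Fbxo32, Trim63, Trim54 and Foxo4 have their lowest value in ischemia 2, as do the cardiomyocyte (-1.20), fibroblast (-1.41) and smooth muscle and pericyte (-1.30) scores, and Trim55 and Foxo1 have theirs in ischemia 1.

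The sums of the other marker lists varied between libraries. The fibroblast sum was 803.7 to 2432 FPKM in sham and 311.7 to 806.6 FPKM in ischemia, and the smooth muscle and pericyte sum was 238.1 to 963.3 FPKM in sham and 116.0 to 311.7 FPKM in ischemia. The adipocyte sum was 501.2 to 1425 FPKM in sham and 416.7 to 738.5 FPKM in ischemia, and most of it was Fabp4 in every library. Adipoq was at 12.7, 19.3 and 93.3 FPKM in sham and at 11.8, 0.0441 and 0.0520 FPKM in ischemia. The mean adipocyte score was 0.62, 2.45 and 4.29 in sham and 0.95, -3.58 and -4.73 in ischemia, so that ischemia 1 stood apart from ischemia 2 and 3. None of the genes in these lists passed the adjusted threshold in edgeR, while 4 of 7 fibroblast, 1 of 8 smooth muscle and 2 of 8 adipocyte genes were lower at an unadjusted p under 0.05, as were 14.2% of all tested genes. The endothelial sum was 199.5 to 224.5 FPKM in sham and 239.2 to 261.4 FPKM in ischemia, with 1 of 7 genes higher at an unadjusted p under 0.05, as were 18.2% of all tested genes. The part of these lists in the values of the ligase and FoxO genes was not tested.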

How the data were processed

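Total RNA libraries from a strand-aware kit were sequenced from 6 rat myocardium samples, 3 sham and 3 ischemia, with 68529126 to 79591989 counted reads each. The authors deposited raw read counts per Ensembl gene, not normalized, together with FPKM values that they had computed from gene length and library size, with genes without reads set to 1e-04. The submitters' processing notes name STAR and HTSeq. Versions and the genome build are not given in the sources used here.

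Ischemia was compared with sham by edgeR (4.0.16, R 4.3.3) with TMM scaling and the quasi-likelihood test, without covariates, on 13964 genes that averaged 0.5 FPKM or more. Two-sided p-values received the Benjamini-Hochberg correction across these genes, and 0.05 was the threshold. Standard errors were derived from the F statistic. Log2 CPM per library used a prior count of 0.5. Ratios were compared with exact permutation tests. DESeq2 (1.42.0), limma (3.58.1) on log2(FPKM + 0.1) and log2(FPKM + 1), other scalings and filters, and fits without each library were alternatives. The fit with sham 2 as the only sham library was chosen after seeing the data, as were the glucocorticoid, TATA and E-box motifs. The scripts were tested on simulated data.

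The 8 genes and the lists were chosen with earlier results of these data known. The genes named from a list were those past the threshold (at most 6, by adjusted p) and the tested genes with the highest and the lowest log2 fold change. The 3 nearest profiles of each gene were sought among named genes. Markers and list genes without a row were not analysed here. The labels do not say whether the samples of a group came from separate animals; if they did not, p-values measure only the spread between these samples.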

Additional observations from a re-analysis of the deposited data

How the results depend on the processing

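No ligase or FoxO gene changed the sign of its log2 fold change under any of the 20 alternatives (19 for Foxo1 and Foxo3, which a mean FPKM of at least 5 leaves out). None of them was called higher in any. The number called lower, 0 in the main comparison, was 1 with DESeq2 and 0 to 2 when single libraries were left out, with Fbxo32 and Foxo4 called without ischemia replicate 1, in a fit that called 7.98% of all genes lower against 1.53% in the main comparison (12.5% with DESeq2). The number of genes whose groups do not overlap, 4 of 8, ranged from 4 to 7 with single libraries left out, where the share of all tested genes without overlap went from 41.1% to between 44.6% and 59.8%. The 7 came without ischemia replicate 3, at 44.6% of all genes. The calls in the pathway lists, 11 in the main comparison, were 43 with DESeq2, 15 of them lower. DESeq2 called 14.8% of all genes higher and 12.5% lower. The list calls were 0 to 33 with single libraries left out and 0 with the atrial or the cardiomyocyte score as covariate. The Trim63 share difference of -11.6 points ranged from -12.2 to -10.6, the log2 ratio of Fbxo32 to Trim63 (-0.48) from -0.86 to -0.27, and the Foxo1 share difference of 1.5 points from -0.46 to 5.23 with single libraries left out. The last was -0.26 without ischemia replicate 2. The causes were not tested.

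The deviations of same-numbered samples from their group means had correlations of -0.050, -0.074 and -0.187. Pairs with different numbers ran from -0.053 to 0.180. With 3 samples a group this check cannot tell whether same-numbered samples were paired, and the labels give only the shared number. With a replicate block, 0 of the 7 genes, 0 genes of the pathway lists and 0 of all 13964 genes passed, and the log2 fold changes were -1.68 for Fbxo32, -1.23 for Trim63 and -0.95 for Foxo4. The paired exact permutation p was 0.25 for the Trim63 share (-11.6 points), 0.75 for the Foxo1 share (1.5 points) and 0.5 for the log2 ratio of Fbxo32 to Trim63 (-0.48). With 3 samples a group, the precision is limited by the spread between libraries, for Mstn too, although it had only 15 to 65 reads.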
